A study of Homo sapiens with 8 samples.

Results

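The genes described here are 10 readouts of the ERK pathway: the MAP kinase phosphatase genes DUSP1, DUSP4, DUSP5 and DUSP6, the inhibitor genes SPRY2, SPRY4 and SPRED1, the ETS factor genes ETV4 and ETV5, and PHLDA1. They were chosen by symbol, with earlier results of these data known, and each of the 10 had 1 row among the 28281 genes measured. With mitoxantrone all 4 phosphatase genes, SPRY2 and ETV5 rose and ETV4 and PHLDA1 fell. Of all 15350 genes tested, 26.8% rose and 28.1% fell in that comparison. With pyrimethamine DUSP4, DUSP5, DUSP6 and SPRY2 rose, beside 2.29% of all genes tested.

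ERK is the last kinase of the cascade that runs from growth factor receptors through RAS, RAF and MEK. Active ERK phosphorylates transcription factors and so induces genes whose products switch the cascade off again. Dual-specificity phosphatases remove the activating phosphates from ERK and related kinases, while Sprouty and Spred proteins act further upstream, between receptor and RAF. ETV4 and ETV5 belong to the PEA3 group of ETS transcription factors, and transcripts of this feedback set are widely read as a measure of pathway output in epithelial cancers, where receptors such as EGFR often drive the cascade. The data hold RNA levels, and phosphorylated ERK was not measured in them.

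KYSE70 is an established line derived from a squamous carcinoma of the human esophagus, and all groups are this 1 line. Cells were left untreated (n = 3) or kept for 72 h in 10 µM pyrimethamine (n = 2) or 20 nM mitoxantrone (n = 3), both of which the series title names as NRF2 inhibitors. Pyrimethamine is an antifolate and mitoxantrone a topoisomerase II poison. The labels name no vehicle for the untreated cells. Nothing in them says that the replicates were grown apart. The p-values therefore reflect the spread among these libraries alone, and that spread may be technical.

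Libraries held 17555689 to 24774358 reads, recovered from the deposited values as described under processing, and levels below are normalised read counts, meaning reads divided by a size factor per library. The 2 pyrimethamine libraries stood apart from each other. Across the 15350 tested genes, which are not independent replicates, their correlation was 0.890, whereas untreated pairs had 0.988 to 0.990 and mitoxantrone pairs 0.981 to 0.984. Change from the untreated mean also ran with transcript length, and its rank correlation over 14035 genes was 0.269 in pyrimethamine replicate 1, -0.358 in replicate 2 and -0.367 to -0.353 with mitoxantrone. The share of reads on 84 ribosomal protein genes was 10.2% to 10.4% in untreated libraries, 4.18% and 12.9% in the pyrimethamine pair and 16.9% to 18.6% with mitoxantrone. Of the squamous markers, KRT5 stood at 46713 to 84458 over the libraries and KRT14 at only 13.2 to 91.0. The summed level of all 7 squamous markers was 108332 to 114828 in untreated, 73523 to 88359 in pyrimethamine and 64575 to 67740 in mitoxantrone libraries. Summed levels of 6 fibroblast markers were 1101 to 1210, 1845 to 2063 and 450 to 602 in the same order. The fibroblast markers did not move together within the pyrimethamine pair, and their sum was lower in replicate 2 (1845) than in replicate 1 (2063). In pyrimethamine replicate 2 COL1A2 stood at 213, above every other library and against 4.57 in replicate 1, and DCN at 27.8 against 1.14. COL3A1 and LUM were also higher in replicate 2. COL1A1, the most abundant, was lower there at 1254 against 1788 in replicate 1, as was PDGFRB at 6.17 against 12.6. Sums over leukocyte markers, 4 in all, were 53.2 to 65.3, 103 to 131 and 117 to 148. Those of 4 endothelial markers were 81.8 to 97.5, 177 to 349 and 92.7 to 195, and 4 glandular markers summed to at most 7.20 in any library. CD3E was at 0 in 7 of 8 libraries, and no marker was at 0 in all 8. The part of these shifts in the results below was not tested, and in bulk samples fewer cells of a type and less RNA per cell cannot be told apart.

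The promoters of 4 of the genes are shown because their transcripts moved with mitoxantrone, upward for DUSP1, DUSP6 and SPRY2 and downward for PHLDA1. Each is 300 bases from RefSeq (GRCh38.p14), from 250 bases before the annotated start to 50 after it, read 5′ to 3′ on the gene's strand, and for SPRY2 the most upstream of the listed starts was taken. Capitals mark a match to a motif searched on both strands: CCGGAA for ETS factors, TGACGTCA for the cAMP response element (CRE), TGANTCA for AP-1, or the CArG box of serum response factor. No window held matches that overlapped.
DUSP1 promoter, chr5:172771146-172771445, minus strand: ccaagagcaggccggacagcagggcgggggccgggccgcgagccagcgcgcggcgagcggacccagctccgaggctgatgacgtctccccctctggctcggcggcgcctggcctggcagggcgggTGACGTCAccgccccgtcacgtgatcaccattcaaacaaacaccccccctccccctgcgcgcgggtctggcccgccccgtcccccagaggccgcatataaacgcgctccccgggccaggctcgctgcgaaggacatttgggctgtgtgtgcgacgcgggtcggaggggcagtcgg
DUSP6 promoter, chr12:89352452-89352751, minus strand: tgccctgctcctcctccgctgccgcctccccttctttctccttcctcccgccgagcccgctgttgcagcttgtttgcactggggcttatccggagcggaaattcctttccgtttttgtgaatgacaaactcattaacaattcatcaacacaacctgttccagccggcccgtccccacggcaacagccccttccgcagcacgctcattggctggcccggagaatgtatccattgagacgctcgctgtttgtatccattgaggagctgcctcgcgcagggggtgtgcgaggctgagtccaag
SPRY2 promoter, chr13:80341077-80341376, minus strand: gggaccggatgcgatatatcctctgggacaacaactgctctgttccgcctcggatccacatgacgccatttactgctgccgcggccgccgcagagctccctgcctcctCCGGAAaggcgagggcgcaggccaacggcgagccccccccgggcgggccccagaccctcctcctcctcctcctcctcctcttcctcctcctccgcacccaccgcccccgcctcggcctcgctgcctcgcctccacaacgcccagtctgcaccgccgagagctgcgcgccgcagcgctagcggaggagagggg
PHLDA1 promoter, chr12:76031727-76032026, minus strand: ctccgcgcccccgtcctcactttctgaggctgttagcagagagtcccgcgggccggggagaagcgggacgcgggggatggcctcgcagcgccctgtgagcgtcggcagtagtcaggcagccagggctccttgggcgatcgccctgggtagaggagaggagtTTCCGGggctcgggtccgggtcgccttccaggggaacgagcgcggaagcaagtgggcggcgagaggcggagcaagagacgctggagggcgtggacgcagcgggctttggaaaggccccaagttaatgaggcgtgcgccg
The DUSP1 window held 1 CRE at position -125 from the start, and 1.85% of 35116 promoters of this length hold one. The SPRY2 window shown held 1 ETS match at -142 and PHLDA1 held 1 at -89 on the opposite strand, against 17.2% of all promoters. Listed starts 2 and 3 of SPRY2, searched but not shown, held none of the 4 motifs. The DUSP6 window held none of the 4 motifs, nor did those of SPRY4 and SPRED1, and AP-1 and CArG matches, present in 7.71% and 1.29% of all promoters, were found in none of the 6 genes. The search covered 8 RefSeq promoters of 6 of the 10 genes. Those of DUSP4, DUSP5, ETV4 and ETV5 were not searched and are not shown. A match is a run of letters and not a shown binding site.

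All 4 phosphatase genes rose with mitoxantrone, where 26.8% of all tested genes were called higher. With pyrimethamine 3 of them were called higher, beside 2.29% of all tested genes. DUSP5, which encodes a nuclear phosphatase specific for ERK (chromosome 10, 110497838 to 110511544, plus strand; positions here and below are those of GENCODE 29 on GRCh38), stood at 216, 236 and 216 in the untreated libraries. It read 577 and 609 with pyrimethamine and 749, 730 and 790 with mitoxantrone. The 3 groups did not overlap, and every treated library was above every untreated one. Log2 fold changes were 1.41 ± 0.16 (SE) with pyrimethamine (limma, Benjamini-Hochberg adjusted p = 0.0115) and 1.76 ± 0.14 with mitoxantrone (limma adjusted p = 2.04e-04), on the log2(value + 1) scale used for all changes here.

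DUSP4 encodes a nuclear phosphatase of ERK and the stress kinases (chromosome 8, 29333064 to 29350668, minus strand). Its levels were 171, 235 and 198 in untreated cells, 556 and 576 with pyrimethamine and 538, 485 and 511 with mitoxantrone. Both treated groups lay wholly above the untreated one, and here the pyrimethamine libraries were the higher of the treated groups. Changes were 1.499 ± 0.19 log2 units with pyrimethamine (limma adjusted p = 0.0122) and 1.35 ± 0.17 with mitoxantrone (limma adjusted p = 8.56e-04).

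DUSP6 encodes the cytoplasmic ERK phosphatase most often used as a readout of pathway activity (chromosome 12, 89347232 to 89353271, minus strand). It stood at 241, 266 and 288 in untreated cells, at 448 and 567 with pyrimethamine and at 550, 529 and 574 with mitoxantrone. The treated groups overlapped each other and lay above all untreated libraries. DUSP6 changed by 0.93 ± 0.18 log2 units with pyrimethamine (limma adjusted p = 0.0346) and 1.06 ± 0.16 with mitoxantrone (limma adjusted p = 0.00168). An antisense gene, AC024909.2, shares 1875 exon bases with DUSP6, and the strand setting of the counting is not stated, so reads of the pair cannot be told apart.

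DUSP1 is an immediate early gene whose product acts on p38, JNK and ERK in the nucleus (chromosome 5, 172768090 to 172771195, minus strand). It read 142, 149 and 167 in untreated cells and 426, 453 and 408 with mitoxantrone, a log2 fold change of 1.49 ± 0.23 (limma adjusted p = 0.00181). With pyrimethamine the libraries were far apart, at 174 in replicate 1, just above the untreated range, and 316 in replicate 2. The log2 fold change of 0.62 ± 0.26 missed the threshold (limma adjusted p = 0.238; 95% interval of the change 0.02 to 1.21), and the 2 libraries taken singly gave 0.19 and 1.05, values with no replicate check. Adjustment for transcript length lowered the mitoxantrone change to 0.84, which still passed (limma adjusted p = 0.00298).

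**Figure D1:**
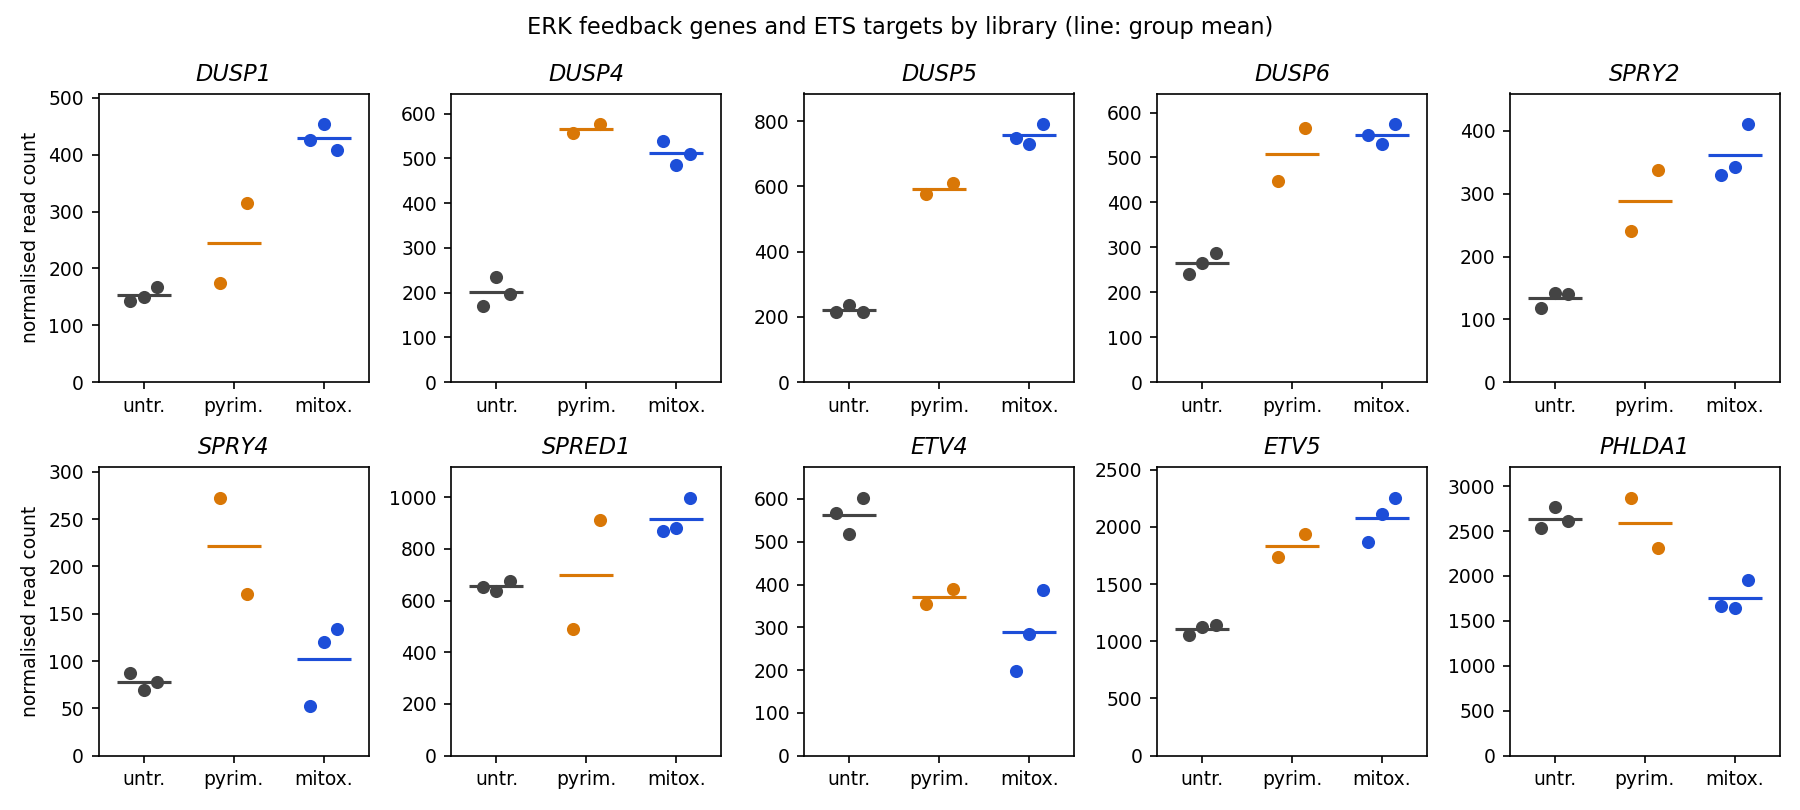
Normalised read count (y axis, from 0, linear) of each of the 10 genes in every library, with untreated (n = 3), pyrimethamine (n = 2) and mitoxantrone (n = 3) libraries along the x axis; points are libraries and lines are group means. DUSP1, DUSP4, DUSP5, DUSP6, SPRY2 and ETV5 lie above the untreated range in all 5 treated libraries, ETV4 lies below it in all 5, and PHLDA1 lies below it in the 3 mitoxantrone libraries. The share of all tested genes that lie outside the untreated range in this way is not given here.

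The Sprouty and Spred genes did not move as a group. SPRY2, whose product restrains signalling from receptor tyrosine kinases to RAS (chromosome 13, 80335976 to 80340951, minus strand), stood at 119, 142 and 141 in untreated cells, at 241 and 337 with pyrimethamine and at 330, 342 and 410 with mitoxantrone. All treated libraries were above all untreated ones. SPRY2 changed by 1.09 ± 0.22 log2 units with pyrimethamine (limma adjusted p = 0.0388) and 1.42 ± 0.20 with mitoxantrone (limma adjusted p = 0.0012).

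SPRY4, a paralog of SPRY2 with a like role (chromosome 5, 142310427 to 142326455, minus strand), had the lowest level of the 10 genes in every untreated and mitoxantrone library. It read 87.3, 69.1 and 77.8 in untreated cells, 272 and 171 with pyrimethamine and 52.3, 120 and 133 with mitoxantrone. Both pyrimethamine libraries were above all others, and the mitoxantrone libraries lay on either side of the untreated range; replicate 1 of mitoxantrone rested on 35 reads. The log2 fold change with pyrimethamine, 1.46 ± 0.42, did not pass the main test (limma adjusted p = 0.0969). On recovered reads it did not pass with edgeR but passed with DESeq2 (adjusted p = 0.0066). The 2 libraries taken singly gave 1.80 and 1.13. With mitoxantrone it was 0.28 ± 0.37 (limma adjusted p = 0.537; 95% interval of the change -0.58 to 1.13), and -0.18 when libraries were scaled to their total reads.

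SPRED1 encodes a membrane protein that brings the RAS inactivator neurofibromin to RAS (chromosome 15, 38252326 to 38357249, plus strand). Its levels were 653, 639 and 674 in untreated cells and 867, 882 and 997 with mitoxantrone, groups that did not overlap. The change of 0.48 ± 0.23 log2 units did not pass (limma adjusted p = 0.1003). After adjustment for transcript length the change was 0.96 and passed (limma adjusted p = 0.0269). The unadjusted change also passed without either pyrimethamine replicate. In those fits the spread within the pyrimethamine pair drops out of the shared error, and most tested genes passed. The 2 pyrimethamine libraries lay on opposite sides of the untreated range, at 489 and 912. Their mean change was 0.03 ± 0.25 log2 units (limma adjusted p = 0.967), with -0.42 in replicate 1 and 0.48 in replicate 2.

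The 2 ETS factor genes moved in opposite directions. ETV5 (chromosome 3, 186046308 to 186110318, minus strand) stood at 1054, 1124 and 1144 in untreated cells, at 1736 and 1937 with pyrimethamine and at 1869, 2114 and 2252 with mitoxantrone. All treated libraries were above all untreated ones. ETV5 rose by 0.90 ± 0.15 log2 units with mitoxantrone (limma adjusted p = 0.00205). With pyrimethamine it was 0.73 ± 0.16 and just missed the threshold (limma adjusted p = 0.052), which it passed with edgeR (adjusted p = 0.036) and DESeq2 (adjusted p = 5.13e-04) on recovered reads.

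ETV4 (chromosome 17, 43527844 to 43579620, minus strand) stood at 567, 517 and 602 in untreated cells, at 355 and 389 with pyrimethamine and at 197, 285 and 387 with mitoxantrone. Every treated library was below every untreated one, and the treated groups overlapped. The log2 fold change was -1.003 ± 0.24 with mitoxantrone (limma adjusted p = 0.0101) and -0.59 ± 0.27 with pyrimethamine, which did not pass (limma adjusted p = 0.281; 95% interval of the change -1.22 to 0.03). ETV4 shares 68 exon bases with DHX8 on the opposite strand, and ETV5 shares 164 with DGKG on its own strand.

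PHLDA1 encodes a pleckstrin homology-like protein induced by growth factors (chromosome 12, 76025447 to 76033932, minus strand), and its levels were the highest of the 10 genes in untreated cells. It read 2537, 2766 and 2614 in untreated cells, 2869 and 2316 with pyrimethamine and 1663, 1645 and 1956 with mitoxantrone. The mitoxantrone libraries were below all others, and the pyrimethamine libraries lay on either side of the untreated range. The log2 fold change was -0.59 ± 0.16 with mitoxantrone (limma adjusted p = 0.0152) and -0.03 ± 0.18 with pyrimethamine (limma adjusted p = 0.942), a value that turned positive under several alternatives. After adjustment for transcript length the mitoxantrone change was -0.12 and no longer passed (limma adjusted p = 0.447). The call was also lost without any 1 of the 3 untreated libraries (limma adjusted p = 0.0503, 0.0678 and 0.0557, in the order of replicates) and without mitoxantrone replicate 1 or 2 (limma adjusted p = 0.0622 and 0.0662). The antisense genes AC011611.3 and AC011611.4 share 553 and 779 exon bases with PHLDA1.

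**Figure D2:**
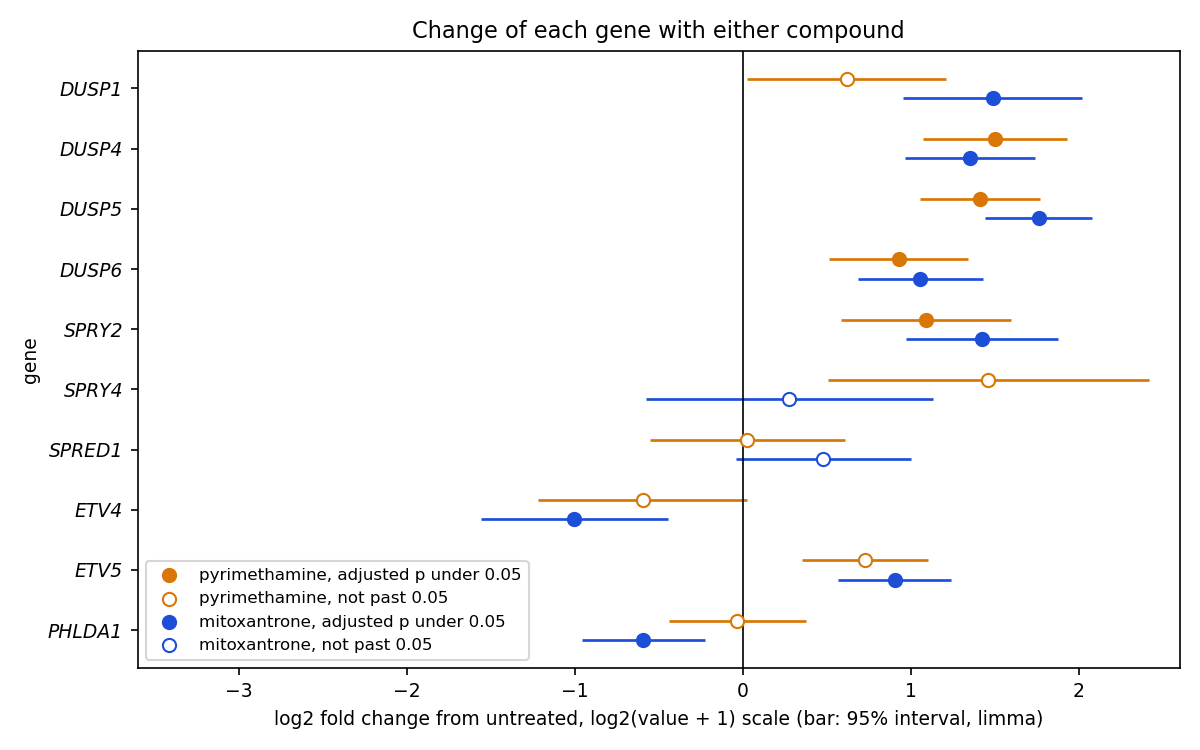
Log2 fold change from untreated cells (x axis, log2(value + 1) scale) of each of the 10 genes (y axis), with 95% intervals from limma over all 8 libraries; filled points passed an adjusted p of 0.05. The phosphatase genes, SPRY2 and ETV5 lie to the right of 0 with either compound, ETV4 to the left, and SPRY4 has 1.46 with pyrimethamine beside 0.28 with mitoxantrone.

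Counted together, 8 of the 10 genes passed with mitoxantrone, 6 higher and 2 lower. Of all 15350 tested genes, 54.9% passed in this comparison, 26.8% higher and 28.1% lower, so a call with mitoxantrone was common. With pyrimethamine 4 of the 10 passed, all higher, beside 3.60% of all tested genes, 2.29% higher and 1.31% lower. The 10 were chosen with earlier results of these data known, so these counts are a description. All 10 genes passed the filter on low values, a mean of at least 10. The median change of the 10 was 0.83 log2 units with pyrimethamine and 0.98 with mitoxantrone, where the medians of all tested genes were -0.08 and 0.00.

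The 4 calls with pyrimethamine depended on the libraries in the fit. Without untreated replicate 1, 2 or 3, limma called 0 of the 10, beside 0.0651%, 0.0651% and 0.0717% of all tested genes. Each time 6 of the 10 had an unadjusted p under 0.05, a level at which the share of all tested genes is not given here. Without mitoxantrone replicate 1, 2 or 3 limma called 2 of the 10, beside 0.541%, 0.397% and 0.938% of all tested genes. A fit without either pyrimethamine replicate leaves that arm 1 library, which is then assumed to vary like the other groups, and the spread within the pair drops out of the error. Without pyrimethamine replicate 1 the count was 8, all higher, where 24.6% of tested genes were called higher and 22.8% lower; without replicate 2 it was 6 higher and 1 lower, where the shares were 19.8% and 29.6%. With the untreated and pyrimethamine groups fitted alone, 0 of the 10 and 0.00% of all tested genes passed in limma. There 7 of the 10 had an unadjusted p under 0.05, again without the share of all tested genes at that level. On recovered reads edgeR called 5 of the 10, beside 4.36% of tested genes, and DESeq2 called 6, beside 11.3%.

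The pyrimethamine pair was closer together for most of these genes than for genes at large. The gap between the 2 libraries had a median of 0.32 log2 units over the 10 genes and of 0.90 over all tested genes. Of the 10, 9 had a gap below the latter, and SPRED1 had the widest, at -0.90 for replicate 1 minus replicate 2. DUSP4 and DUSP5 had the narrowest, at -0.05 and -0.08. For 8 of the 10 genes, all but SPRED1 and PHLDA1, the pair deviated from the untreated mean in one direction, as it did for 44.5% of all tested genes.

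**Figure D3:**
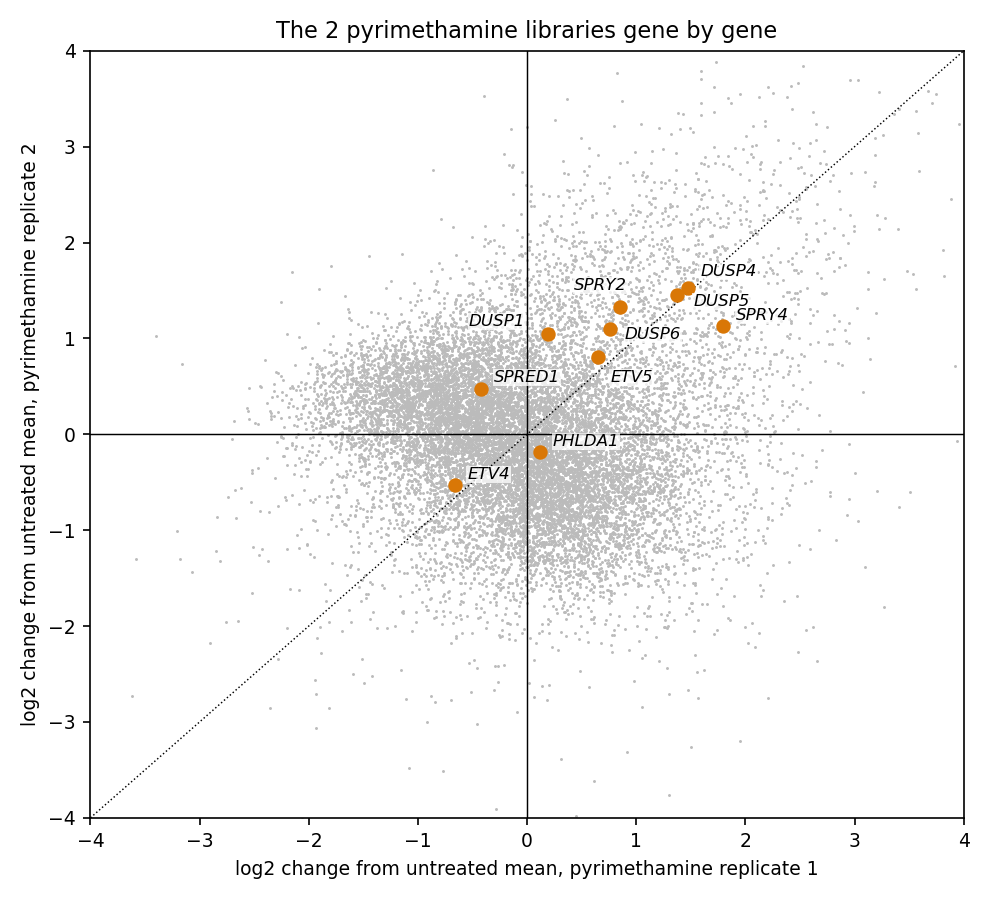
Log2 change from the untreated mean in pyrimethamine replicate 1 (x axis) and replicate 2 (y axis) for 15322 of the 15350 tested genes (grey; 28 lie outside the axes) and for the 10 genes named (orange); the dotted line marks equal change. DUSP4 and DUSP5 lie near the line at 1.37 to 1.52, SPRY4 lies below it, DUSP1 at 0.19 on the x axis, and SPRED1 and PHLDA1 in the quadrants of opposite sign.

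The compounds were also set against each other, a comparison that shares libraries with the 2 above. DUSP1 was higher with mitoxantrone than with pyrimethamine by 0.87 ± 0.26 log2 units (limma adjusted p = 0.0336) and PHLDA1 was lower by a log2 difference of -0.56 ± 0.18 (limma adjusted p = 0.0392). These were the only 2 of the 10 that passed, beside 41.0% of all tested genes, 21.2% higher and 19.9% lower with mitoxantrone. The largest difference in size, -1.18 ± 0.42 for SPRY4, missed narrowly (limma adjusted p = 0.0506) and passed with edgeR (adjusted p = 0.0401) and DESeq2 (adjusted p = 0.0221). For DUSP6 the difference was 0.13 ± 0.18 with a 95% interval of -0.29 to 0.54, for DUSP4 -0.15 ± 0.19 (-0.58 to 0.28) and for ETV5 0.18 ± 0.16 (-0.20 to 0.55). Both calls were lost without any 1 untreated or mitoxantrone library, and the DUSP1 call without pyrimethamine replicate 1, where its difference was 0.44 against a single library. Scaling to library totals moved the median of all genes to -0.69 in this comparison and called 0 of the 10 higher and 6 lower, beside 9.37% and 43.1% of tested genes. Relative to that shift the median of the 10 was 0.16, beside 0.17 with the deposited scaling.

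To compare genes with each other, levels were divided by the length of all annotated exons, in normalised counts per kilobase. In untreated cells PHLDA1 was highest at 327 ± 14.4 (SD, n = 3), followed by ETV5 at 191 ± 8.12 and ETV4 at 156 ± 11.8. DUSP5 (85.1 ± 4.52), SPRED1 (79.3 ± 2.14), DUSP1 (75.7 ± 6.28), DUSP6 (57.2 ± 5.13), SPRY2 (44.1 ± 4.37), DUSP4 (27.7 ± 4.41) and SPRY4 (11.9 ± 1.38) came next. Only SPRED1 and DUSP1 among these neighbours had overlapping libraries. With mitoxantrone ETV5 was highest at 358 ± 33.4 and DUSP5 second at 289 ± 11.8. PHLDA1 (217 ± 21.6) and DUSP1 (213 ± 11.2) overlapped, then DUSP6 (119 ± 4.78), SPRY2 (119 ± 14.2), SPRED1 (111 ± 8.61), ETV4 (80.4 ± 26.3) and DUSP4 (70.5 ± 3.64) each overlapped with the next, and SPRY4 was lowest at 15.5 ± 6.63. With pyrimethamine PHLDA1 (321) and ETV5 (317) overlapped at the top, DUSP5 followed at 227, DUSP1, DUSP6, ETV4, SPRY2, SPRED1 and DUSP4 lay between 121 and 78.0 with each overlapping its neighbour, and SPRY4 was lowest at 33.7 (n = 2).

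From 7 lists, also chosen with earlier results of these data known, 59 other genes of the pathway were read, 55 of them tested. With mitoxantrone 7 rose and 24 fell, beside 26.8% higher and 28.1% lower of all tested genes. With pyrimethamine 18 had an unadjusted limma p under 0.05, a level at which the share of all tested genes is not given here. After adjustment 3 rose and 0 fell, beside 2.29% higher and 1.31% lower of all tested genes. None of these 3, PHLDA2, HBEGF and MAFF, was called by limma without any 1 untreated library, without mitoxantrone replicate 2, with the 2 groups fitted alone or with either replicate block. Without pyrimethamine replicate 1 and replicate 2 the counts were 13 higher and 17 lower, and 17 higher and 14 lower, each from an arm of 1 pyrimethamine library. Of all tested genes 24.6% were higher and 22.8% lower in the former fit, and 19.8% and 29.6% in the latter. Scaling to library totals gave 6 higher and 34 lower with mitoxantrone, beside 18.2% and 39.1% of all tested genes, and moved the median of all genes to -0.45.

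Of the RAS, RAF, MEK and ERK core, 7 of 16 genes fell with mitoxantrone and 1 rose, with a list median of -0.41 log2 units, beside 28.1% lower and 26.8% higher of all tested genes. MAPK3, which encodes ERK1, averaged 447 ± 7.08 (SD, n = 3) in untreated cells and 192 ± 8.58 with mitoxantrone, and its log2 fold change was -1.22 (limma adjusted p = 7.31e-04). HRAS, a RAS GTPase, had -0.76 (limma adjusted p = 0.0119). With pyrimethamine 0 of 16 passed in limma, with 3 at an unadjusted p under 0.05. There edgeR and DESeq2 called 1 and 2 lower, beside 1.22% and 4.57% of all tested genes. Of 6 negative regulators of RAS, 4 fell with mitoxantrone, with log2 fold changes of -1.53 for NF1 (neurofibromin), -1.47 for LZTR1, -1.13 for RASA1 and -1.05 for the ubiquitin ligase gene CBL, and PEBP1, the RAF inhibitor, rose by 1.07. After adjustment for transcript length the counts with mitoxantrone were 1 higher and 4 lower in the core and 1 higher and 3 lower among the negative regulators, where 26.8% and 27.7% of all adjusted genes were called.

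Relatives of the 10 genes moved in both directions with mitoxantrone. Of 6 other MAP kinase phosphatase genes tested, DUSP14 rose with mitoxantrone, from 1443 ± 53.1 (SD, n = 3) to 5927 ± 232 (limma adjusted p = 0.00229), and DUSP7, DUSP9 and DUSP16 fell, with log2 fold changes of -0.94, -1.38 and -1.15. Of all tested genes 26.8% were higher and 28.1% lower with mitoxantrone. With pyrimethamine 0 of the 6 passed in limma or edgeR, with 3 at an unadjusted p under 0.05. DESeq2 called 2 higher, beside 6.76% of all tested genes. SPRED2 fell with mitoxantrone, with a log2 fold change of -0.67 (limma adjusted p = 0.025) that did not pass after adjustment for transcript length, and SPRY1 had -0.38 (limma adjusted p = 0.207). PHLDA2 rose with both compounds, from 53.0 ± 15.5 (SD, n = 3) to 184 and 235 with pyrimethamine (limma adjusted p = 0.0148) and to 591 ± 59.8 with mitoxantrone (limma adjusted p = 1.65e-04), while PHLDA3 had log2 fold changes of -0.06 and -0.15.

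Of 11 other ETS factor genes tested, ELF3, an epithelial ETS factor, rose with mitoxantrone by 1.53 log2 units, and ERF (-1.41), ELK4 (-1.19), ELK3 (-1.63) and ETV3 (-0.86) fell. ERF and ETV3 encode ETS repressors. With pyrimethamine 0 of the 11 passed in limma or edgeR, with 4 at an unadjusted p under 0.05. DESeq2 called 2 higher and 1 lower, beside 6.76% and 4.57% of all tested genes. Of 12 other ERK output genes, 2 rose and 5 fell with mitoxantrone, where 26.8% of all tested genes were higher and 28.1% lower. EGR1, an immediate early zinc finger factor, averaged 541 ± 37.4 (SD, n = 3) in untreated cells and 117 ± 18.1 with mitoxantrone, and its log2 fold change was -2.20 (limma adjusted p = 4.86e-04). HBEGF, an EGFR ligand, and MAFF, a small MAF factor, rose with both compounds, with log2 fold changes of 1.98 and 1.62 with pyrimethamine and 1.80 and 1.74 with mitoxantrone.

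**Figure D4:**
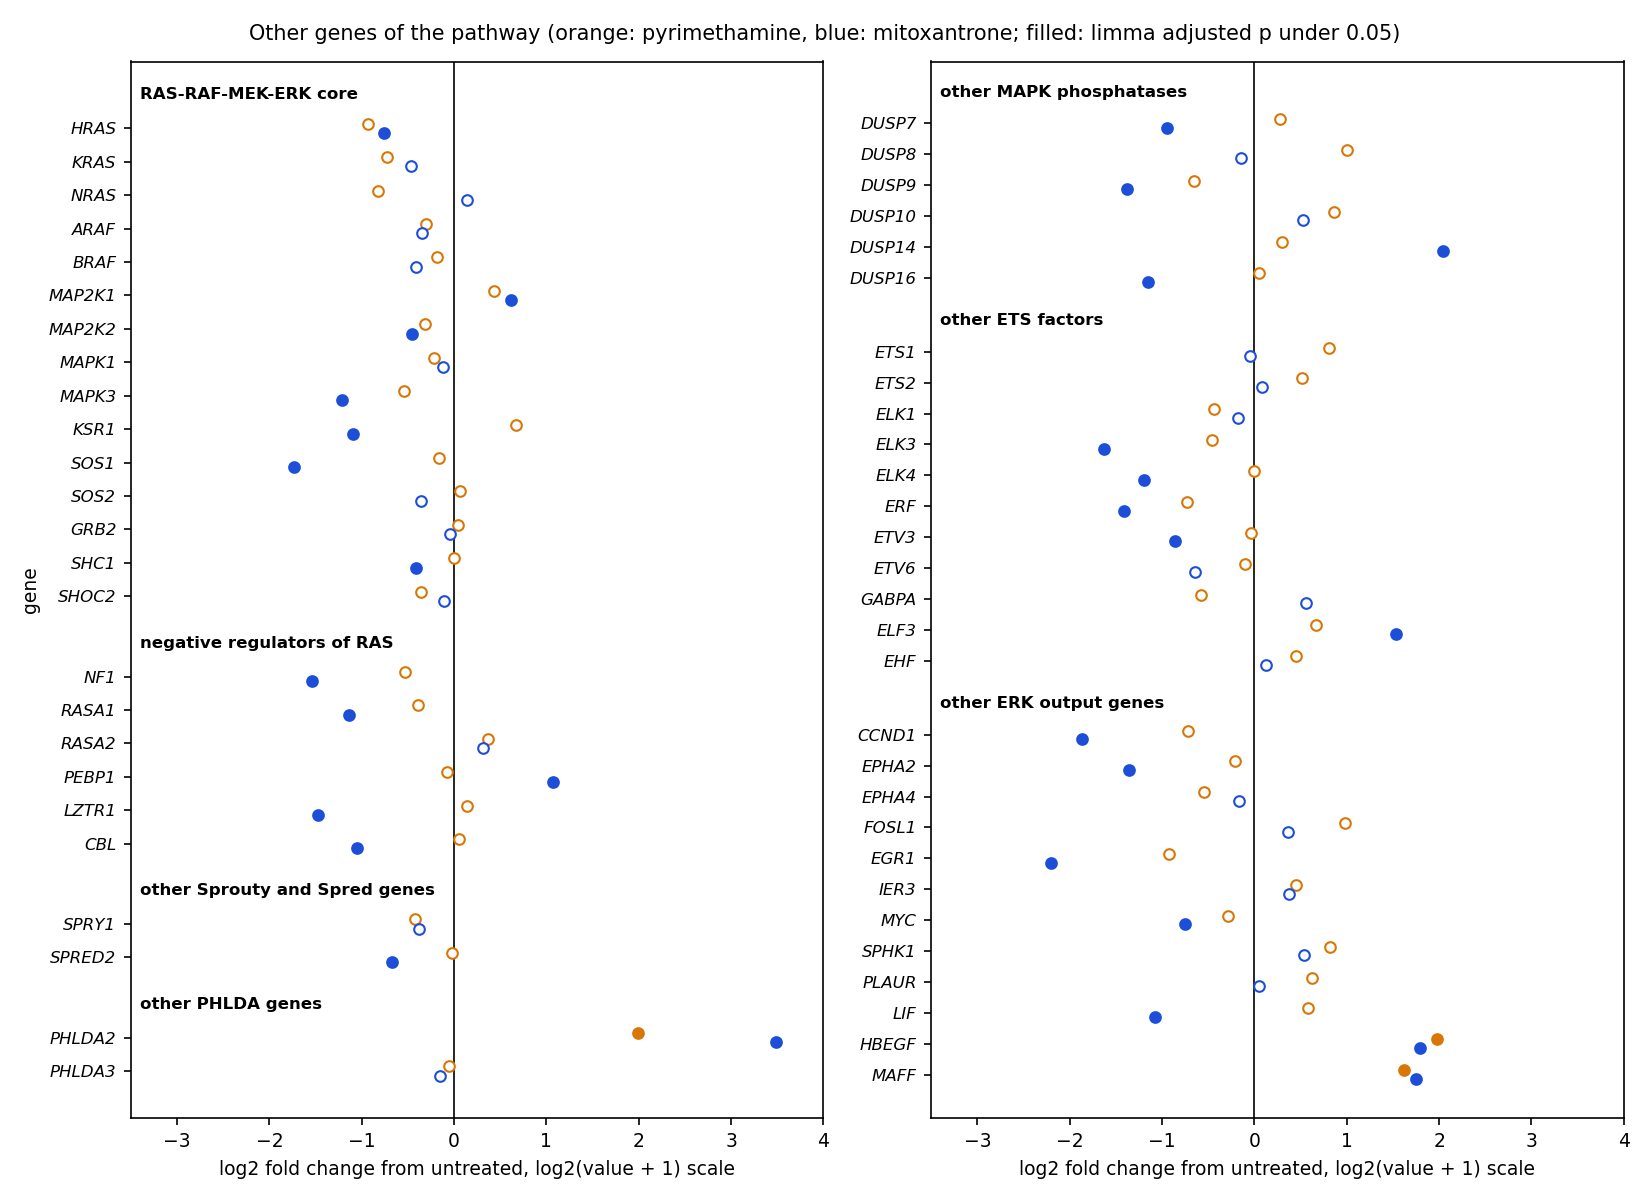
Log2 fold change from untreated cells (x axis, log2(value + 1) scale) of 54 of the 55 tested genes of the 7 pathway lists (y axis), orange for pyrimethamine and blue for mitoxantrone; filled points passed a limma adjusted p of 0.05. Filled blue points are mostly left of 0, with 23 lower and 7 higher among those drawn, and the 3 filled orange points are PHLDA2, HBEGF and MAFF.

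Over the 8 libraries the genes of mean level at least 100 whose log2 levels were most like those of DUSP6 were RAB6B (Pearson r = 0.992), ODAPH (0.992) and PHTF1 (0.991), out of 10823 compared. For ETV5 they were SPRY2 (0.991), FAM110A (0.990) and LACTB (0.989). For SPRY4 they were PTAFR (0.972), MCOLN1 (0.966) and EPS8L1 (0.952), of which PTAFR averaged 390 in untreated cells, 723 with pyrimethamine and 446 with mitoxantrone. The 8 libraries fall into the 3 groups compared above, so these values are a description.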

How the data were processed

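STAR 2.6.90c, featureCounts 1.5.1, cutadapt 1.12, FastQC 0.11.5 and build hg38 are named in the submitters' processing notes. Annotation, strand setting and treatment of multi-mapping reads: not given in the sources used here. The deposited table of 28281 genes holds a normalised signal, which its title calls DESeq2 normalised. Within 0.1 read, 100% of values in every library were whole multiples of 1 step per library, so reads and size factors were recovered.

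limma 3.58.1 (R 4.3.3) was run on log2(value + 1) for 15350 genes with a mean of at least 10, with group as the only term, a shared spread over all 8 libraries (5 residual degrees of freedom), a trend and two-sided tests. Adjustment was Benjamini-Hochberg over all tested genes at 0.05. Counts at an unadjusted p under 0.05 are from limma, and the share of all tested genes at that level is not given here. edgeR 4.0.16 and DESeq2 1.42.0 on recovered reads, other scalings, filters, pseudocounts, left-out libraries, replicate blocks and a spline on exon length (GENCODE 29; 91.4% of tested genes) were alternatives. For pyrimethamine, mitoxantrone and the difference between them, limma called 553, 8430 and 6299 genes, edgeR 670, 8478 and 6713 and DESeq2 1738, 9238 and 8088. The scaling to library totals was chosen after the recovered size factors were seen. The limma step was tested on simulated data. Members and lists were chosen with earlier results of these data known. Named pathway genes are the 3 with the smallest adjusted p per list and comparison, plus all called where at most 5 were called. 1 gene that this rule names is not reported here. Genes like DUSP6, SPRY4 and ETV5 are the 3 with the highest Pearson correlation.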

Additional observations from a re-analysis of the deposited data

How the results depend on the processing

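With mitoxantrone the number of the 10 genes called, 8, ranged from 7 to 9 over all 21 alternatives. The share of all tested genes called moved more widely. It was 77.1% with the 2 groups fitted alone, where 9 of the 10 were called. It was 42.9% with the block by description numbers, where 7 were called, and 28.5% without a filter on low values, where 8 were called. With pyrimethamine the 4 called became 0 with the 2 groups fitted alone and with either replicate block, where 0.00% of all tested genes passed. They became 0 to 2 when 1 untreated or mitoxantrone library was left out, beside 0.0651% to 0.938% of all tested genes. Between the compounds the 2 called became 0 without a filter on low values and after the length adjustment, beside 8.66% and 39.7% of all genes tested there. They became 0 with the 2 groups alone and with either replicate block, where 0.00% passed, and 6 with library totals, beside 52.4%. Leaving out any 1 untreated or mitoxantrone library gave 0, beside 0.00% to 16.7%. The cause of these shifts was not tested. Whether the replicate numbers pair the libraries is not known. Deviations of libraries with the same title number correlated at -0.287 to 0.127. By description number the second pyrimethamine library correlated at -0.410 with its mitoxantrone library and at 0.029 with its untreated library. The 2 pyrimethamine libraries deviate from their mean by equal and opposite amounts, so their correlations mirror each other and cannot settle a pairing. The block by title numbers left 8 calls with mitoxantrone. The block by description numbers, where the second pyrimethamine library carries another number, left 7.

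Some small changes turned sign. PHLDA1 with pyrimethamine, -0.03, gave 0.089 with upper-quartile scaling, 0.19 with library totals, 0.0044 with the replicate block by title, 0.028 with length adjustment, 0.013 with edgeR and -0.19 to 0.12 when 1 library was left out, being 0.0016 without untreated replicate 2. SPRED1 with pyrimethamine ranged from -0.42 to 0.48 when 1 library was left out, and SPRY4 with mitoxantrone gave -0.18 with library totals. Between the compounds library totals gave -0.33 for DUSP5, -0.55 for DUSP6, -0.34 for SPRY2, -0.23 for SPRED1 and -0.50 for ETV5, the length adjustment gave 0.21 for DUSP4 and -0.10 for DUSP5, and DUSP6 ranged from -0.041 to 0.30 when 1 library was left out. SPRY4 had 35 to 477 reads a library, the fewest of the 10 genes in its lowest library; the part of depth in its spread was not tested.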
